A study of Mus musculus with 3 samples.

Results

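The 8 genes described here encode receptors for bacterial formyl peptides, metabolites and lipid mediators, together with 1 olfactory receptor gene: Fpr1, Fpr2, Fpr3, Hcar2, Gpr84, Ptafr, Adora2b and Olfr56. They were found by an exact match of the gene symbol, and 8 of 8 were present among the 32285 genes of the count matrices. The genes were selected on their levels in these same libraries, so their levels and ratios are given as a description and without any test. Bone marrow-derived macrophages (BMDMs) were grown from the marrow of female C3H/HeN mice of 6 to 8 weeks, given as 6 weeks old in the methods of the study. They were left with PBS (Ctrl), or given the purified lipoproteins of *Borrelia burgdorferi* (*Bb*LP, 1 µg/mL) for 1 h (LP1) or for 4 h (LP4), and the Ctrl cells were collected together with the 4 h cells. The cells of 3 wells, reported as derived from 3 mice, were pooled into 1 library per condition. There are thus no replicates that can be separated, no p-value is given, and every interval below covers counting error alone.

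All 8 genes belong by sequence to the G protein-coupled receptors, which span the plasma membrane and pass the binding of a small ligand on to heterotrimeric G proteins inside the cell. On phagocytes, formyl peptide receptors detect peptides that begin with N-formylmethionine, as bacterial and mitochondrial proteins do, and they guide migration and the oxidative burst. Hcar2 responds to nicotinic acid and the ketone body beta-hydroxybutyrate, Gpr84 to medium-chain fatty acids, Ptafr to platelet-activating factor and Adora2b to adenosine. Olfr56 is named as an olfactory receptor from its sequence.

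After cells with at most 500 unique molecular identifiers (UMIs), at most 500 genes or at least 5% mitochondrial UMIs were left out, 6071 cells of Ctrl, 5065 of LP1 and 4670 of LP4 remained, with 35688939, 52475723 and 61402275 UMIs. The median cell held 5133, 9343 and 11784 UMIs, so depth differed with the condition. Levels are therefore given as counts per 1000000 UMIs of the library (CPM), and shares of cells after each cell was thinned to 2000 UMIs. Between 4 and 10 cell barcodes were shared by each pair of libraries. Of 8 macrophage markers, including Adgre1, Csf1r and Cd68, 8 were detected in each library, with 2793, 2828 and 3321 CPM in sum. The 14 neutrophil markers summed to 620.7, 521 and 848 CPM, and the T, B, NK and mast cell or basophil markers to at most 10.3 CPM a list.

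Fpr1, Fpr2 and Fpr3 are neighbours on mouse chromosome 17 in the mm10 (GRCm38) build that the files use. In GENCODE vM21, Fpr1 spans chr17:17876471-17883940 on the minus strand, and Fpr2 starts 3884 bases beyond the start of Fpr1 and runs the other way, at chr17:17887824-17893952. Fpr3 spans chr17:17887852-17971677 on the same strand as Fpr2, because its longer transcript starts with an exon of 48 bases at chr17:17887852-17887899, all of which lies in the first exon of Fpr2. Its coding exon of 1220 bases follows at chr17:17970458-17971677. RefSeq, by contrast, starts Fpr3 at that coding exon. The RefSeq windows of these 3 neighbours, from 250 bases before to 50 bases after the RefSeq start (GRCm38.p6), are shown because the genes lie side by side and all were higher in LP4. The Fpr2 window also holds the first base of the long Fpr3 transcript. Capitals mark a GAS motif (TTCNNNGAA), the only match in these 3 windows to the 4 motifs searched.
Fpr1 (chr17:17883890-17884189, minus strand): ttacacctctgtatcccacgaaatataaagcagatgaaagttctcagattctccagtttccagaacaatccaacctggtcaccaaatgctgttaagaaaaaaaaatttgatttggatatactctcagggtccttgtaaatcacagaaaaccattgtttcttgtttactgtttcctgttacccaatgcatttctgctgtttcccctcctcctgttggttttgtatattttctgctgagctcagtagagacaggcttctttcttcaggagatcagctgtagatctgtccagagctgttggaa
Fpr2 (chr17:17887574-17887873, plus strand): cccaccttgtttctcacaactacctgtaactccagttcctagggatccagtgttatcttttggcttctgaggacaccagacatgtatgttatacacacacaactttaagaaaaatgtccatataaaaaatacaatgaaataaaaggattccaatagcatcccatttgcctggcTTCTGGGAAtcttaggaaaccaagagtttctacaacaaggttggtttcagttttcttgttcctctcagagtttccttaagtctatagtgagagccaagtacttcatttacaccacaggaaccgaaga
Fpr3 (chr17:17970208-17970507, plus strand): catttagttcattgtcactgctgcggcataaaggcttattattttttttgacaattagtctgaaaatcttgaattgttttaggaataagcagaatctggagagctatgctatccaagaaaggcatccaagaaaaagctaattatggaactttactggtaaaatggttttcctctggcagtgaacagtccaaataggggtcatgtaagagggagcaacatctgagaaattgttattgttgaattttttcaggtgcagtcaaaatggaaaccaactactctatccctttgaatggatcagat

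The windows of 7 of the 8 genes are in the RefSeq table, and both strands were searched for the kB motif, the interferon-stimulated response element, the GAS motif and the AP-1 motif (TGANTCA). Besides the GAS match of Fpr2, which begins 77 bases before the start, only the Olfr56 window had matches. These were 2 AP-1 matches, the later of which lies after the RefSeq start, and no matches overlapped. That RefSeq start lies 155284 bases from the GENCODE start of Olfr56, so the window does not cover the GENCODE start. The latest start among the GENCODE transcripts of Olfr56, at chr11:49087052, is not covered either. Of all 32851 windows, 8.46% held a kB match, 3.44% an interferon-stimulated response element, 8.30% a GAS match and 7.81% an AP-1 match. The Fpr1, Fpr3, Gpr84, Ptafr and Adora2b windows held none of the 4.

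The other genes lie apart from this group. Hcar2 is a gene of 1 exon at chr5:123863570-123865499, Gpr84 has 2 exons at chr15:103308235-103310612, Ptafr 2 exons at chr4:132564067-132582683 and Adora2b 2 exons at chr11:62248984-62266453. Olfr56 spans chr11:48978889-49135387 and encloses Ifi47, an interferon-inducible GTPase gene on the same strand at chr11:49076587-49096974. Both genes use an exon of 111 bases at chr11:49087034-49087144. The nested pairs Fpr2 with Fpr3 and Olfr56 with Ifi47 thus have shared or enclosed sequence. How reads in such sequence were counted, and whether intronic reads were counted, is not given in the sources used here. No stretch of 50 bases in the last 600 bases of the longest transcript of any of the 8 genes, where 3′ libraries place most reads, was found in the transcripts of another of them or of Ifi47. Elsewhere, 77 of the 1084 such stretches of Fpr2 were also in Fpr3, and 82 of the 1219 of Fpr3 were in Fpr2. Of the 2718 of Olfr56, 64 were also in Ifi47, and of the 1275 of Fpr1, 1 was in Fpr2.

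Each of the 8 genes was highest in LP4, whereas Ctrl and LP1 differed little. Fpr1, the classical formyl peptide receptor, gave 9 UMIs without lipoprotein, 18 at 1 h and 381 at 4 h, equal to 0.252, 0.343 and 6.20 CPM. Fpr2, which also binds serum amyloid A and annexin A1, had 66, 112 and 2570 UMIs, or 1.85, 2.13 and 41.9 CPM. Fpr3, a close paralogue of Fpr2, had 21, 23 and 3824 UMIs, or 0.588, 0.438 and 62.3 CPM. For the 3 formyl peptide receptors, the 95% counting intervals of Ctrl and LP1 overlapped and that of LP4 stood clear of both. The 4 remaining genes of the family in the matrices, Fpr-rs3, Fpr-rs4, Fpr-rs6 and Fpr-rs7, had 0 UMIs in each library. The limit that a count of 0 allows is 0.0841, 0.0572 and 0.0489 CPM for Ctrl, LP1 and LP4.

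Among the metabolite receptors, Hcar2 gave 111, 170 and 1275 UMIs in the same order of conditions, or 3.11, 3.24 and 20.8 CPM. Gpr84 was already present without lipoprotein at 1004 UMIs, and it had 1305 at 1 h and 3288 at 4 h, giving 28.1, 24.9 and 53.5 CPM. Adora2b, the low-affinity adenosine receptor, had 939, 1543 and 6543 UMIs, or 26.3, 29.4 and 107 CPM. Hcar2 and Adora2b thus stood 6.68-fold and 4.05-fold above Ctrl in LP4, and Gpr84 less so. Ptafr, the receptor of platelet-activating factor, had 4587, 7679 and 14505 UMIs, or 129, 146 and 236 CPM. Olfr56 had 68, 76 and 6641 UMIs, or 1.91, 1.45 and 108 CPM, and each of its 68 UMIs in Ctrl came from a different cell. Levels are not ordered between genes, since UMIs of different transcripts are not captured equally.

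**Figure D1:**
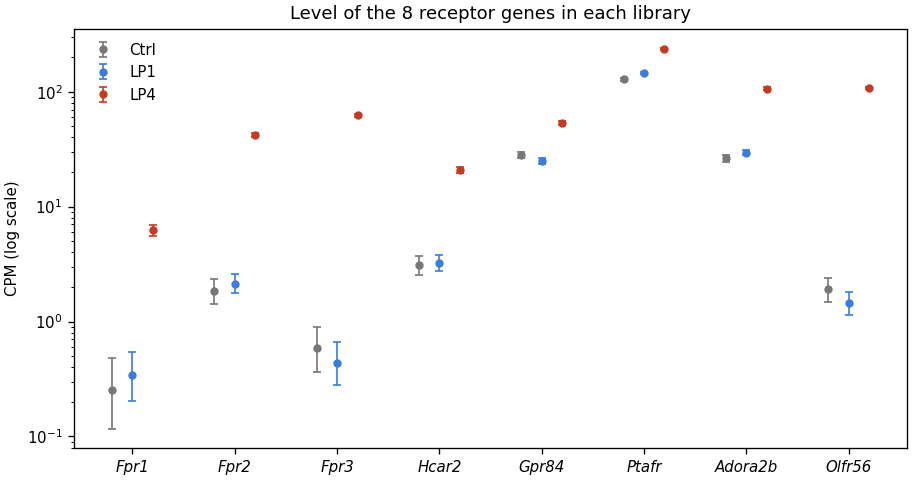
CPM (log axis) of the 8 receptor genes in the Ctrl, LP1 and LP4 libraries, 1 library each, with bars for the exact Poisson 95% interval. The LP4 point lies above both others for each gene, by little for Gpr84 and Ptafr and by most for Fpr3, at 62.3 CPM over a Ctrl level of 0.588.

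At 4 h over Ctrl, 6 of the 8 genes had at least doubled (log2 ratio of CPM of at least 1), against 11.6% of the 14361 genes with at least 20 UMIs in the pair of libraries. Nothing is read from this count, because the genes were picked on these values. The log2 ratio was 6.73 for Fpr3 (95% interval 6.11 to 7.42), 5.83 for Olfr56 (5.48 to 6.19), 4.62 for Fpr1 (3.68 to 5.76), 4.50 for Fpr2 (4.15 to 4.88), 2.74 for Hcar2 (2.46 to 3.03) and 2.02 for Adora2b (1.92 to 2.12). Fpr3 held rank 5 and Olfr56 rank 10 among the 14361 genes by this ratio. Gpr84 lay just below the limit at 0.93 (0.83 to 1.03) and Ptafr at 0.88 (0.83 to 0.93). Gpr84 was thus 1.90-fold and Ptafr 1.84-fold above Ctrl. None of the 8 was lower by that amount, against 15.6% of the genes. The median of the 8 genes was 3.62, and that of all tested genes was -0.15. Taken relative to it, Gpr84 stood at 1.08 and Ptafr at 1.03, and both passed the limit when the libraries were scaled by TMM factors (1.10 and 1.05) or by the median of ratios (1.14 and 1.08).

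At 1 h over Ctrl, 0 of the 8 genes had doubled, against 1.45% of the 14085 genes tested, and 0 were lower by that amount, against 3.15%. The log2 ratios ran from -0.42 for Fpr3 to 0.44 for Fpr1. The interval left out 0 for 3 genes: Ptafr at 0.19 (0.13 to 0.24), Adora2b at 0.16 (0.04 to 0.28) and Gpr84, which was lower, at -0.18 (-0.30 to -0.06), or -0.11 with TMM factors. For Fpr1 the interval of -0.79 to 1.78 was wide, since it rests on 27 UMIs in the pair. The median over the 8 genes was 0.11, beside -0.04 over all genes.

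From 1 h to 4 h, 7 of the 8 genes at least doubled, against 10.9% of genes, and 0 were lower by that amount, against 12.5%. The log2 ratio of LP4 over LP1 was 7.15 for Fpr3 (6.56 to 7.81), 6.22 for Olfr56, 4.29 for Fpr2, 4.18 for Fpr1, 2.68 for Hcar2, 1.86 for Adora2b and 1.11 for Gpr84 (1.01 to 1.20). Ptafr stood at 0.69 (0.65 to 0.73). This comparison shares its LP4 library with the one over Ctrl, so the values of the pair are not separate evidence.

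**Figure D2:**
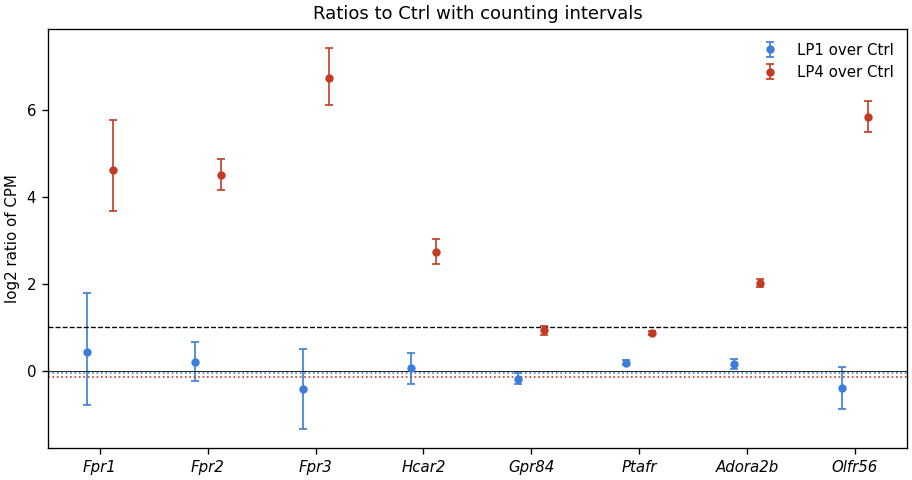
Log2 ratio of CPM over Ctrl for the 8 genes in LP1 and LP4, with bars for the exact 95% counting interval. The dashed line is at 1, and the dotted lines mark the medians of all tested genes, -0.04 in LP1 and -0.15 in LP4. The LP1 values lie between -0.42 and 0.44, and the LP4 values between 0.88 and 6.73.

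The share of cells with a UMI followed the same order. At 2000 UMIs a cell, 5949, 5052 and 4625 cells remained in Ctrl, LP1 and LP4, and 122, 13 and 45 shallower cells were left out. Fpr3 was seen in 0.0840%, 0.0594% and 9.34% of cells (exact binomial 95% interval for LP4 8.52% to 10.2%). Fpr2 was seen in 0.420%, 0.554% and 7.26%, and Fpr1 in 0.0168%, 0.0990% and 1.19%. The Ctrl and LP1 shares rest on 1 and 5 cells for Fpr1 and on 5 and 3 cells for Fpr3, so they are imprecise. Formyl peptide receptor transcripts were thus seen in under 1% of the Ctrl and LP1 cells at this depth. Hcar2 was seen in 0.740%, 0.713% and 3.85%, Gpr84 in 4.87%, 4.55% and 9.28%, and Adora2b in 4.84%, 5.60% and 19.7%. Ptafr was seen in 22.004%, 25.6% and 38.2%, and Olfr56 in 0.420%, 0.257% and 17.9%. For 8 of 8 genes the LP4 interval lay above the Ctrl interval, and for 1 of 8, Ptafr, the LP1 interval did so. The genes were picked on such shares and the count was not made over all genes, so nothing is read from it. Without thinning, the LP4 shares were 87.1% for Ptafr, 60.1% for Adora2b, 59.4% for Olfr56, 36.5% for Gpr84, 27.3% for Fpr2, 27.0% for Fpr3, 16.3% for Hcar2 and 5.65% for Fpr1. Without thinning the Ctrl shares were 48.2%, 12.9%, 1.12%, 12.1%, 0.988%, 0.313%, 1.61% and 0.132% in that gene order.

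**Figure D3:**
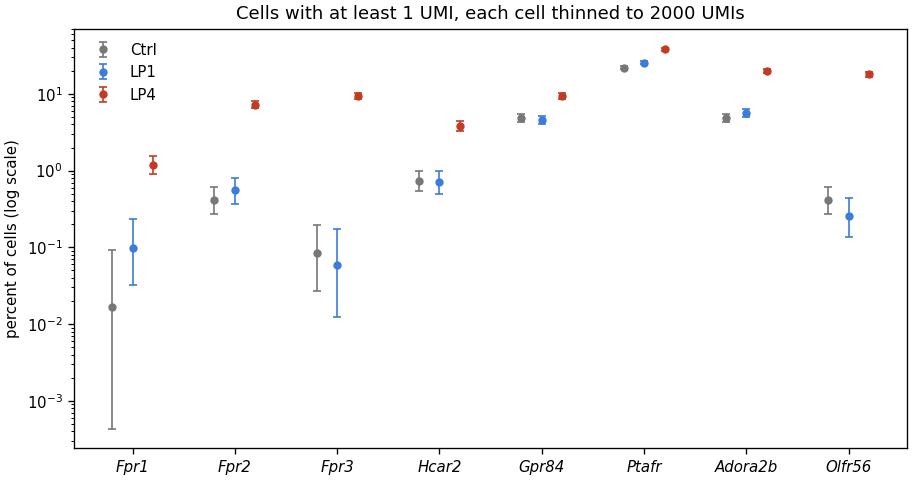
Percent of cells (log axis) with at least 1 UMI of each gene after thinning to 2000 UMIs, in Ctrl, LP1 and LP4, with bars for the exact binomial 95% interval. Olfr56 goes from 0.420% in Ctrl to 17.9% in LP4, while Ptafr goes from 22.004% to 38.2%.

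Counted together at that depth, at least 1 of the 8 transcripts was seen in 30.3%, 33.9% and 69.4% of the Ctrl, LP1 and LP4 cells. At least 2 of them were seen in 2.96%, 3.44% and 28.1%, and the most in 1 cell were 3, 3 and 5. These receptors were therefore mostly seen singly at this depth also in LP4.

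The UMIs of the genes were not spread over the LP4 cells in the same way. If the UMIs had lain over cells in proportion to each cell's depth, Fpr3 would have been seen in 52.7% of LP4 cells, but it was counted in 27.0%. A cell with Fpr3 held 3.03 UMIs of it on average and up to 31, and the 10% of cells with the most Fpr3 held 70.8% of its UMIs. Fpr2 was counted in 27.3% against 40.4%, Hcar2 in 16.3% against 23.2% and Gpr84 in 36.5% against 47.9%. By the ratio of the 2 shares Ptafr was nearest to that spread, at 87.1% against 90.5% (0.96), and the top 10% of cells held 27.6% of its UMIs. Adora2b (60.1% against 70.3%), Olfr56 (59.4% against 70.8%) and Fpr1 (5.65% against 7.76%) had ratios of 0.85, 0.84 and 0.73. The top 10% of cells held 62.7% of the UMIs of Fpr2, 76.9% of those of Hcar2 and 100% of those of Fpr1, which was counted in fewer than 10% of cells. This measure also depends on the level of a gene. Its value for a proportional spread was not computed, so it is not compared between genes. Of the 8 genes, Fpr3 had the lowest ratio of the counted share to the proportional share, at 0.51.

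**Figure D4:**
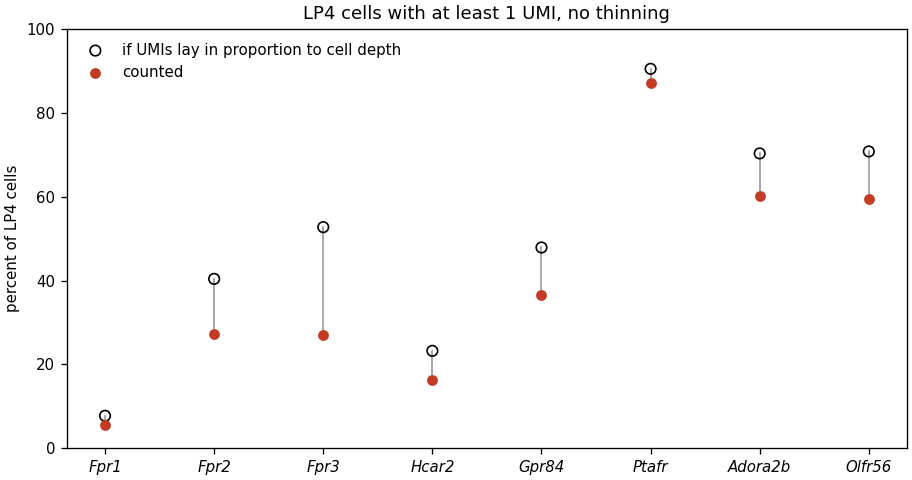
Percent of the 4670 LP4 cells with at least 1 UMI of each gene, without thinning, as counted (filled) and as it would be if the gene's UMIs lay over cells in proportion to their depth (open). The gap is widest for Fpr3, 27.0% against 52.7%, and narrow for Ptafr, 87.1% against 90.5%.

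Fpr2 and Fpr3 were seen in the same cells more often than the product of their shares gives. Of 4625 thinned LP4 cells, 103 (2.23%, 95% interval 1.82% to 2.69%) held both, and the product of their shares is 0.679%, a ratio of 3.28 and the highest of the 28 pairs of these genes. The next were Fpr1 with Fpr2 at 2.75, on 11 cells, and Fpr1 with Hcar2 at 2.36, on 5 cells. For Fpr1 with Fpr2 the interval was 0.119% to 0.425%, beside a product of 0.0864%. With so few cells, the order of these ratios is not settled. Olfr56 with Fpr3 had a ratio of 1.33 on 103 cells, Ptafr with Adora2b 0.99 on 345 cells, and the lowest was Fpr2 with Gpr84 at 0.80 on 25 cells. Without thinning, Fpr3 was counted in 64.4% of the cells with Fpr2 and in 13.02% of those without it. The cells with both held a median of 14492 UMIs and those with neither 10990, so depth moves with this count, and its part there was not tested. Over the thinned LP4 cells, Fpr3 was also the gene with the highest Pearson correlation with Fpr2 (r = 0.20) among 3222 genes at 50 CPM or more. The nesting of the pair in the annotation moves with this result, and its part was not tested. For the other nested pair, Olfr56 and Ifi47, r was 0.02, and Ifi47 held rank 558 among the 3222 genes.

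Other cell correlations were weak. In LP4, the genes nearest to Fpr1 were S100a9 (r = 0.19), S100a8 and Thbs1, those nearest to Hcar2 were S100a9 (0.17), S100a8 and Ccl3, and those nearest to Gpr84 were S100a9 (0.08), S100a8 and Cd14. S100a8 and S100a9 encode the calprotectin subunits, which neutrophils hold in large amounts. The genes nearest to Olfr56 were Rsad2 (0.13), Cmpk2 and Gbp5, which are known as interferon-inducible. Those nearest to Fpr3 were Il27 (0.12), March1 and Saa3, with Fpr2, at under 50 CPM, not among the candidates. Adora2b was nearest to Errfi1 (0.14), Cd14 and Cxcl1, and Ptafr to Gm42418 (0.11), Ctnnb1 and Sirpa. All of these share the cells, library and depth, and they are given as a description.

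The cells were grouped into 12 clusters, A to L, on genes that differed less than 1.5-fold between libraries, with the 8 receptor genes left out. Clusters A to H held at least 50 cells in each library, and all 64 pairs of gene and cluster had a higher CPM in LP4 than in Ctrl. The counting interval of the ratio lay above 0 in 61 of the 64, the exceptions being Fpr1 in E, G and H. These counts were not made over all genes. Nothing is read from them, because the genes were picked on their levels in these libraries. In 9 pairs Ctrl held 0 UMIs, namely Fpr1 and Fpr3 in D, E and H, Fpr2 in H, and Hcar2 and Olfr56 in G. For Fpr1 in E, with 73 UMIs in LP4 and 0 in Ctrl, a floor of 3 counts for the shallow Ctrl cells gives a log2 ratio of -0.16, so no rise can be read there. Clusters A, B, C, E and G were called macrophage-like because 5 to 7 of the 8 macrophage markers were detected in at least 50% of their cells, although no such marker was among their 10 leading genes, and those of G included the replication genes Mcm4, Mcm6 and Mcm7. Cluster F was cycling-like and led by histone genes and Cenpf, and H was dendritic cell-like and led by H2-Eb1, H2-Ab1, H2-Aa and Cd74. Cluster D stayed unnamed because Mmp9, listed as a neutrophil marker, was among its leading genes. Cluster E was led by Gbp4, Ddit4 and F13a1, and 87.9% of its 1093 cells came from LP4, so it may be that library rather than a type of cell. Cluster C, led by Egr3, Slc9a9 and Cd86, was the reverse, with 1519 Ctrl, 1099 LP1 and 107 LP4 cells. It held 2.29% of the LP4 cells, and whether it is the same type of cell in each library was not tested. Clusters I, K and L, with 210, 56 and 13 cells, were too small in a library to be compared.

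Among clusters A to H in LP4, Olfr56 varied least, from 95.2 CPM in D to 121 CPM in B, a 1.27-fold range. Fpr1 varied most, from 2.80 CPM in D to 19.2 CPM (11.2 to 30.8) on 17 UMIs in C, a 6.86-fold range. That range rests on the 107 LP4 cells of C, as the next highest Fpr1 value was 8.14 CPM, in E. Fpr3 ran from 46.4 CPM in D to 71.9 in B, and Ptafr from 141 in G to 266 in A. Adora2b ran from 54.9 CPM in D to 171 in E, and its intervals in those clusters, 49.9 to 60.2 and 163 to 180, stood clear of each other. Gpr84 ran from 25.1 in D to 78.1 in G, and Hcar2 from 12.1 in F to 39.2 in E. Cluster E held 23.4% of the Adora2b UMIs and 27.5% of the Hcar2 UMIs of LP4, with 14.6% of all LP4 UMIs and 20.6% of the LP4 cells. Of A to H, Fpr2 was lowest in G, at 23.4 CPM, and had its highest value in the dendritic cell-like cluster H, at 72.3 CPM (56.7 to 90.7). The macrophage-like cluster C came next, at 64.5 CPM (48.9 to 83.6), and its interval overlapped that of H. In Ctrl, the 87 cells of cluster H held 0 UMIs of Fpr1, Fpr2 and Fpr3 among 504546, with an exact Poisson upper bound of 7.31 CPM. In LP1, its 74 cells held 6 UMIs of Fpr2, or 8.07 CPM (2.96 to 17.6). Without cluster E, the LP4 to Ctrl log2 ratio of Adora2b was 1.87, and 6 of the 8 genes reached a doubling, beside 11.8% of all genes. Nothing is read from this count, because the genes were picked on these values.

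Cluster J, neutrophil-like by Mpo, Elane, Ngp and S100a9 among its leading genes, held 32, 25 and 28 cells of the 3 libraries and a different set of these receptors. In its 28 LP4 cells, Fpr1 reached 150 CPM on 36 UMIs (105 to 208), compared with 5.64 CPM in all other LP4 cells. Hcar2 reached 284 CPM on 68 UMIs (220.3 to 360), compared with 19.7 CPM, and Gpr84 184 CPM on 44 UMIs (133 to 246), compared with 53.0 CPM. These 28 of 4670 cells held 9.45% of its Fpr1 UMIs and 5.33% of its Hcar2 UMIs. Hcar2 was high in cluster J also in Ctrl, at 115 CPM on 12 UMIs, and in LP1, at 135 CPM on 19 UMIs, compared with 2.78 and 2.89 CPM in the other cells. Neutrophil-like cells thus held 10.8% of all Hcar2 UMIs in Ctrl and 11.2% in LP1, and 6 of the 18 Fpr1 UMIs of LP1. Without them, Fpr1 stood at 0.225 CPM in Ctrl and still at 5.64 CPM after 4 h.

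Olfr56, Adora2b, Fpr3 and Ptafr had a lower CPM in the neutrophil-like cells of LP4 than in the others. Olfr56 had 1 UMI in the 28 neutrophil-like cells of LP4, or 4.17 CPM (0.106 to 23.2), compared with 109 CPM in all other cells. Adora2b had 5 UMIs there, or 20.9 CPM (6.77 to 48.7), compared with 107 CPM, and Fpr3 also had 5 UMIs, or 20.9 CPM, compared with 62.4 CPM. Ptafr stood at 117 CPM (77.6 to 169), compared with 237 CPM. After thinning, Olfr56 was seen in 0 of the 28 neutrophil-like cells, which allows a share of up to 10.7% by the limit of 3 counts and of 12.3% by the exact interval, and in 18.1% of the other cells, at median depths of 9262 and 11800 UMIs. Fpr3 was seen in 1 of the 28 cells (3.57%, 0.0904% to 18.3%) and in 9.38% of the others, Adora2b in 7.14% (0.877% to 23.5%) and 19.7%, and Ptafr in 32.1% (15.9% to 52.4%) and 38.2%. For these 3 genes the interval of the 28 cells held the share of the other cells, so no difference in share was detectable. For Fpr2, the neutrophil-like value of 75.1 CPM (44.5 to 119) on 18 UMIs lay above the 41.7 CPM of the other cells.

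**Figure D5:**
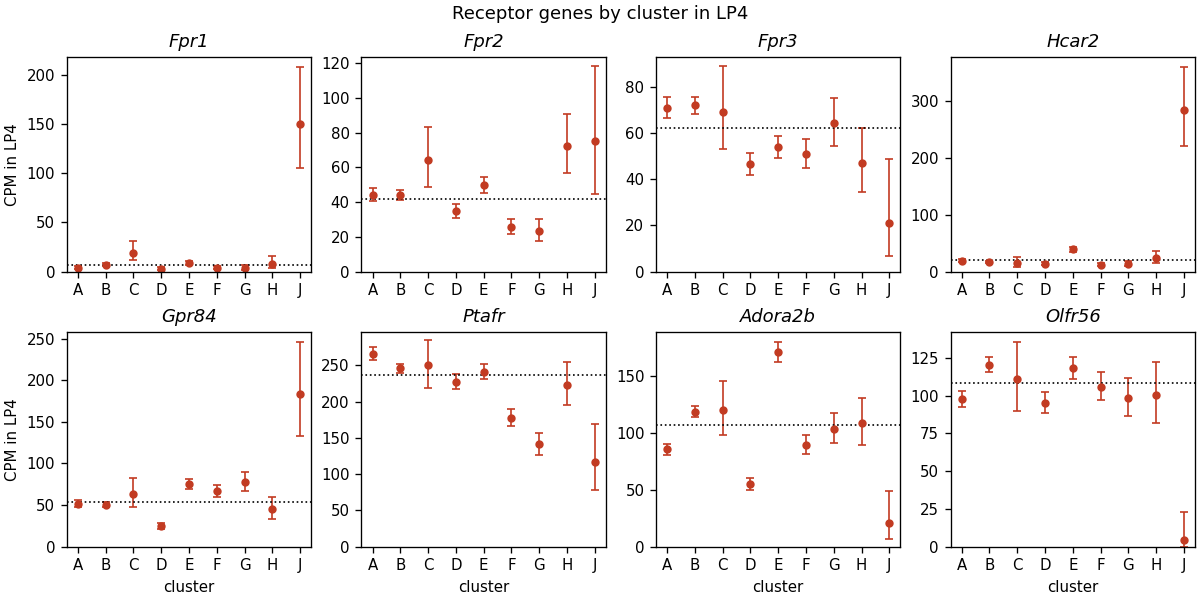
CPM of each gene in LP4 by cluster, for clusters A to H and the neutrophil-like cluster J, with bars for the exact Poisson 95% interval and a dotted line at the LP4 library's CPM. Fpr1, Hcar2 and Gpr84 are highest in J (150, 284 and 184 CPM), while Olfr56 lies between 95.2 and 121 CPM in A to H and at 4.17 CPM in J.

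By the log2 ratios of LP1 and LP4 over Ctrl, the nearest of 8103 genes at 10 CPM or more in a library were found for each gene. Il6, Fpr2 and Inhba were nearest to Fpr1, and Il6, Gm14085 and Gcnt2 were nearest to Fpr2, which had 4.50 in LP4 beside 4.50 for Il6. Olfr56 had Ifit1, Cxcl5 and Cmpk2, with log2 ratios of LP4 over Ctrl of 5.67, 5.84 and 5.54. The gene nearest to Fpr3 was Olfr56, followed by Cxcl5 and Rnd1, at distances of 0.90 to 1.02 on the log2 scale. The counting intervals of the Fpr3 ratios were wide, -1.34 to 0.50 for LP1 and 6.11 to 7.42 for LP4 over Ctrl. How close these genes lie to Fpr3 is thus not settled. Hcar2 was nearest to Tma16, Slco3a1 and Acvr1b, Gpr84 to Axl, Psd4 and Frmd4a, Ptafr to Scarf1, Rab6a and Sdcbp, and Adora2b to AI504432, Aff2 and Plagl2. The likeness covers 3 libraries and is a description.

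Other receptors of these ligand classes were higher and lower in LP4. Of 43 further receptors for metabolites, nucleotides and lipid mediators, 33 had enough UMIs, and in LP4 over Ctrl 7 (21.2%) were at least doubled and 9 (27.3%) lower by as much, beside 11.6% and 15.6% of all genes, with a median of -0.13. Gpr183, the receptor of oxysterols, went from 61.9 CPM without lipoprotein to 50.2 at 1 h and 5.20 at 4 h (log2 ratio of LP4 over Ctrl -3.57). The proton-sensing Gpr65 went from 47.8 to 24.7 and 8.05 CPM (-2.57), the ADP receptor P2ry1 from 11.0 to 14.3 and 1.97 CPM (-2.48) and Gpr34, a lysophosphatidylserine receptor, from 14.5 to 12.4 and 6.34 CPM (-1.20). Higher in LP4 were the prostaglandin E2 receptor gene Ptger2, at 5.63, 5.49 and 28.0 CPM (2.31), and the UDP-sugar receptor gene P2ry14, at 5.44, 6.10 and 24.8 CPM (2.19). The adenosine receptor genes Adora2a and Adora3, named after their values were seen because they share a ligand with Adora2b, went from 0.672 to 0.991 and 6.38 CPM (3.25, interval 2.65 to 3.91) and from 1.46 to 0.648 and 7.46 CPM (2.36, interval 1.94 to 2.80). Adora1 had 0 UMIs in each library.

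Of 20 ligands and ligand enzymes, 20 were tested and 2 (10.0%) were doubled and 1 (5.00%) lower by as much in LP4 over Ctrl, beside 11.6% and 15.6% of all genes, with a median of 0.02. Saa3, a serum amyloid A, went from 61.1 to 43.7 and 993 CPM (4.02), and Pla2g4a, the cytosolic phospholipase A2, from 22.1 to 29.8 and 220 CPM (3.31). Entpd1, the ectonucleotidase CD39, was lower by as much, at 81.0, 55.5 and 25.7 CPM (-1.65). Of 26 tested genes of G protein coupling, 3 (11.5%) were doubled and 2 (7.69%) lower by as much, beside the same 11.6% and 15.6%, so neither share exceeded that of all genes, and the median was 0.32. The beta subunit gene Gnb2 went from 83.9 to 229 and 274 CPM (1.71), and Gna13 from 242 to 278 and 495 CPM (1.03). Plcb3, a phospholipase C, went from 15.7 to 13.4 and 34.6 CPM (1.14), and Plcb2 from 20.5 to 17.5 and 8.26 CPM (-1.31). Arrb1, which encodes beta-arrestin 1, went from 76.4 to 58.6 and 20.2 CPM (-1.92).

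Ifi47, which lies within Olfr56, and related interferon-inducible GTPase genes were listed with earlier results of these data known. In LP4 over Ctrl, 7 of 7 were at least doubled, beside 11.6% of all genes, with a median log2 ratio of 3.60. Nothing is read from this count, because of how the list was made. Ifi47 itself went from 15.7 to 13.2 and 72.5 CPM, and its log2 ratio at 4 h, 2.21, is below the 5.83 of Olfr56. Irgm2 stood at 5.06, Tgtp2 at 4.24, Iigp1 at 3.60, Irgm1 at 3.32 and Igtp at 3.20. Olfr56 was lower than Ifi47 in Ctrl, at 1.91 CPM, and higher in LP4, at 108 CPM. The part that the nesting of the 2 genes has in these values was not tested.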

How the data were processed

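The 8 genes and every gene list were chosen with earlier results of these data known. Per the labels, 10x 3′ libraries were made and processed with Cell Ranger 7.1.0 on mm10; the deposited matrices hold counts of UMIs per gene and cell, not normalized. Ctrl is the library titled UI. Cells with over 500 UMIs, over 500 genes and under 5% mitochondrial UMIs were kept. UMIs were summed per library and given as CPM with exact Poisson 95% intervals, ratios with exact conditional binomial intervals, and shares with exact binomial intervals after thinning to 2000 UMIs; genes listed at 0 used a floor of 3 counts. The ratio's interval covered the simulated ratio in 97% (LP1 over Ctrl), 93% (LP4 over Ctrl) and 95.5% (LP4 over LP1) of cases. It covers counting error alone. Clusters came from 2000 variable genes, 30 components and Leiden at a resolution of 0.5 (scanpy 1.11.5, leidenalg 0.10.2), and were named from fixed markers. Scrublet marked 0, 1 and 1 doublets, so the caller did not work and no doublets were removed. TMM (edgeR 4.0.16) and median of ratios (DESeq2 1.42.0) were alternatives. Named from each list were at most 6 genes past a log2 ratio of 1 in LP4 over Ctrl with at least 10 CPM, and for each receptor gene its 3 nearest genes. Gene models are from GENCODE vM21 and windows from RefSeq.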

Additional observations from a re-analysis of the deposited data

Results flagged for a closer look

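Barcodes that the cell filter left out were used in no comparison above. They entered only the settings below with no cell filter or with a mitochondrial limit of 10%. Among the 369 such barcodes of LP4, with 3384864 UMIs, Adora2b stood at 78.3 CPM (69.1 to 88.3) and Olfr56 at 94.8 CPM (84.7 to 106), and both intervals lay above those of the 52 barcodes left out of Ctrl, which held 0 UMIs of either gene among 60985, with an exact Poisson upper bound of 60.5 CPM. The kept LP4 cells held 107 and 108 CPM. Fpr3 stood at 36.6 CPM and Fpr2 at 22.2 CPM in the same LP4 barcodes, compared with 62.3 and 41.9 CPM in the kept cells. Hcar2 and Fpr1 went the other way. They stood at 65.6 and 32.8 CPM in the Ctrl barcodes left out, on 4 and 2 UMIs. In the LP4 barcodes left out they stood at 16.8 and 2.95 CPM, with intervals that overlapped those of Ctrl.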

How the results depend on the processing

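No paired analysis was possible because each condition is 1 library and the labels give no replicate numbers. Over 10 other settings and 1 chosen after seeing the data (without cluster E), the number of doubled genes was 6 to 8 of 8 for LP4 over Ctrl and 7 of 8 for LP4 over LP1. Of all genes, 11.4% to 15.3% were doubled in these settings for LP4 over Ctrl and 10.5% to 12.8% for LP4 over LP1. Nothing is read from these counts, because the 8 genes were picked on these values. For LP1 over Ctrl the number was 0 except when each cell's share of UMIs was averaged over cells, where it was 1: Fpr1, on 27 UMIs, at a log2 ratio of 1.56. Of all genes, 1.7% were doubled in that setting, and 1.37% to 3.81% over the settings. TMM and median of ratios moved the median of all genes in LP4 over Ctrl from -0.15 to 0.02 and 0.06, which put Gpr84 and Ptafr past the limit (8 of 8). The share of all genes doubled rose as well, from 11.6% to 14.4% and 15.3%. Averaging over cells put Gpr84 past the limit (7 of 8, beside 11.7% of all genes). No called ratio changed sign. Of the 240 recomputed single-gene ratios, 215 stayed within the counting interval and 25 left it, among them Fpr1 in LP4 over LP1 at 3.09 in place of 4.18 when averaged over cells. The lowest and highest log2 ratio of LP4 over Ctrl over these alternatives were 6.60 and 6.93 for Fpr3, 5.78 and 6.03 for Olfr56 and 4.29 and 4.83 for Fpr1. The 8 of 8 shares held at 1000 and 5000 UMIs and unthinned, though without thinning 5 of 8 genes had an LP1 interval above that of Ctrl. At resolutions of 0.3 and 0.8, 40 of 40 and 80 of 80 pairs of gene and cluster were higher in LP4. Neither the shares nor these pairs were counted over all genes. Differences between single libraries cannot be told apart from differences between wells or runs.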
